A study of Mus musculus with 7 samples.

Results

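The genes for the neuropeptides VIP and PACAP and for their receptors were followed across the cell types of the mouse cortex. The 5 genes are Vip and Adcyap1, which encode the peptides, and Vipr1, Vipr2 and Adcyap1r1, which encode the receptors VPAC1, VPAC2 and PAC1. They were chosen as the members of this ligand and receptor family, by name and not by their values, and they are 5 of 25871 non-viral gene columns in the snRNA-Seq files. In the ATAC-Seq table, 119 of 323369 reference regions lay in these genes or within 50000 bp of them.

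The snRNA-Seq sample is V1 (primary visual cortex) of C57BL/6J mice aged 6 to 10 weeks, injected with a pooled AAV9 library of candidate enhancers (PESCA), in 10 inDrops libraries. File names put the libraries in sets 1 and 2 of 5 libraries. The study's text says that each animal gave 5 libraries, but no label ties a set to an animal, and all 10 libraries are 1 sample. The ATAC-Seq samples are nuclei from whole cortex of uninjected F1 mice aged 6 to 12 weeks, 2 samples each from Sst-IRES-Cre, Pv-Cre and Vip-IRES-Cre mice. All of these carried SUN1-2xsfGFP-6xMYC as well, a nuclear envelope tag that Cre turns on and that lets nuclei be pulled down with an antibody to GFP (INTACT). Each of these samples came from the nuclei of a single animal. The samples are labelled male, whereas the protocol names both sexes. The tag marks every cell that has ever had Cre, and the Vip-IRES-Cre allele sits in Vip itself, so the VIP samples carry an altered copy of a gene under study.

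VIP and PACAP are peptides of the secretin and glucagon family, cut from longer precursors and stored in dense-core vesicles. VPAC1 and VPAC2 bind both peptides well, whereas PAC1 binds PACAP far better than VIP. All of these receptors couple mainly to Gs, so that binding raises cAMP, which acts through protein kinase A, the Epac proteins and CREB. In the cortex, VIP is the peptide for which a class of interneurons that mainly inhibit other interneurons is named, and PACAP is known as a peptide of excitatory neurons.

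All 5 genes lie on the plus strand in GRCm38. Vip is at chr10:5639218-5647617, Adcyap1 at chr17:93199017-93206537, Vipr1 at chr9:121642716-121672954, Vipr2 at chr12:116077726-116146261 and Adcyap1r1 at chr6:55451978-55501451. The 250 bases before the start site of each gene are shown, from RefSeq on GRCm38.p6, plus strand, because the promoters of the peptides and of the receptors differ in kind. Capitals mark matches on either strand. In the peptide promoters they mark TGACGTC, the cAMP response element without its last base. In that of Vip they also mark TATAAA, which is the usual TATA box. In the receptor promoters they mark GGGCGG, a GC box. A GC box on the minus strand reads CCGCCC here. The motifs were chosen after the data had been seen.
Vip, chr10:5638968-5639217: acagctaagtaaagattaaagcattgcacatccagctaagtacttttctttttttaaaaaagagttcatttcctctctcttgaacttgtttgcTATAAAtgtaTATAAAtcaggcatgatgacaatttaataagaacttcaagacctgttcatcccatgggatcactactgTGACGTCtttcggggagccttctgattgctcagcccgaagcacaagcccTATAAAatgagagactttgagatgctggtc
Adcyap1, chr17:93198767-93199016: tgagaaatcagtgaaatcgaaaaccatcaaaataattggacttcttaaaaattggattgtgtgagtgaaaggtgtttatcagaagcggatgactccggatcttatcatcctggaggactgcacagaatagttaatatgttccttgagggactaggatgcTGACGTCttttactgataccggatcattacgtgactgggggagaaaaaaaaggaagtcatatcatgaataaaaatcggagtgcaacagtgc
Vipr1, chr9:121642466-121642715: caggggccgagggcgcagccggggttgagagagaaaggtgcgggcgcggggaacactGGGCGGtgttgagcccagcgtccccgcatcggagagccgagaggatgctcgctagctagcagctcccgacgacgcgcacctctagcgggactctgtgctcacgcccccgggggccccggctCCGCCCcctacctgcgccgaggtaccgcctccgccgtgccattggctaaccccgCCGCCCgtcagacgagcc
Vipr2, chr12:116077476-116077725: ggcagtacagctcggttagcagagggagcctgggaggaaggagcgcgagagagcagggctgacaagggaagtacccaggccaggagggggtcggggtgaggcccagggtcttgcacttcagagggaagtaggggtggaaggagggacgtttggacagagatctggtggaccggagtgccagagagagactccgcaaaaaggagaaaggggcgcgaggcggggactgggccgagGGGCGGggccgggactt
Adcyap1r1, chr6:55451728-55451977: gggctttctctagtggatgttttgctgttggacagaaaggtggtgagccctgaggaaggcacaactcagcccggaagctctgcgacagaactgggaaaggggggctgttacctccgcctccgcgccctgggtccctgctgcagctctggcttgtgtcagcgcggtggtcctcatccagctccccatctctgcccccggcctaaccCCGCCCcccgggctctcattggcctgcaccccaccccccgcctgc

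The peptide promoters were poor in G and C, and the receptor promoters were rich in them. The GC content was 38.4% for Vip and 39.6% for Adcyap1, against a median of 52.4% over 32817 promoters of the same length. It was 72.8% for Vipr1, 65.2% for Vipr2 and 65.6% for Adcyap1r1. The letters TGACGTC stood at -79 to -73 in Vip and at -91 to -85 in Adcyap1, counted back from the base before the start site, and in none of the receptor windows. They were found in 2.78% of all promoters. The match in both peptide promoters went on to the run tgacgtcttt, which 20 of the 32817 promoters (0.0609%) held on either strand. This run was picked as the longest that the peptide windows share, and they are among the 20. Its share is therefore no measure of how rare a shared element is. TATAAA was found in Vip, last at -30 to -25, and in 12.4% of all promoters. GGGCGG was found in all 3 receptor windows, in neither peptide window, and in 32.7% of all promoters. The palindrome TGACGTCA was in none of these 5 windows and in 1.55% of all promoters. The AP-1 motif TGANTCA was in none of them and in 6.75% of all. The homeodomain core TAATTA was in none and in 4.85% of all. The E box CACGTG was in none and in 6.02% of all. TGACG, the shorter core of the cAMP response element, was in the peptide windows and in Vipr1, and in 17.7% of all promoters. A match is a description of letters and not a site of binding.

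In the snRNA-Seq libraries, 32335 of 47348 barcodes had more than 200 non-viral UMIs (unique molecules counted) and were kept as nuclei. The libraries held from 2457 to 3629 nuclei each, with a median of 612 to 876 UMIs per nucleus. A nucleus was put in a class when the marker genes of that class had at least 2 UMIs and more than 2 times the UMIs of every other list. Interneuron types were gated within inhibitory nuclei and cortical layers within excitatory nuclei. Vip was left out of the VIP list wherever Vip itself was measured. Doublets were not treated, and 45.4% of the nuclei fell in no class. Of the 12072 excitatory nuclei, 8682 were in no layer, and of the 1717 inhibitory nuclei, 632 were in no type. Libraries with neighbouring numbers shared 339 to 821 barcode sequences in each of 8 pairs, against a median of 83 in the other 37 pairs. In all, 11945 nuclei (36.9%) had a barcode that was kept in another library too, so the main values were also computed without them. Levels are UMIs of the gene per 10000 non-viral UMIs of the class, with an exact 95% Poisson interval. These intervals cover counting error only, and no test was made between classes, because the nuclei belong to 1 sample. The level over barcodes of 200 or fewer UMIs, a mix of free RNA and small nuclei, is given as a background.

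Vip RNA was concentrated in VIP-gated nuclei. These nuclei, gated without Vip, had 79.9 Vip UMIs per 10000 (76.4 to 83.5), from 1970 UMIs in 237 nuclei. The lowest, median and highest of the 10 libraries were 41.2, 80.5 and 108. The 5 libraries of set 1 had 87.4, 108, 41.2, 79.3 and 84.7, and those of set 2 had 81.4, 85.4, 79.5, 76.9 and 65.6. Every library thus lay far above the level of 0.945 in the small barcodes. The level was 79.4 in the 163 nuclei with unshared barcodes. When Vip was put back on the list, 269 nuclei entered and the level was 82.5.

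The other named interneuron types held almost none. Vip was at 0.265 in SST-gated nuclei (11 UMIs in 3 nuclei), at 0.191 in NPY-gated nuclei (5 UMIs) and at 0.0626 in PV-gated nuclei (2 UMIs), all below the small barcodes. At least 1 Vip UMI was seen in 70.0% of VIP-gated nuclei (63.8 to 75.8), which had a median of 873 UMIs. The share was 0.897% in PV-gated nuclei, whose median depth was higher, at 1350 UMIs. Excitatory nuclei were at 0.176 and L4-gated nuclei at 0, which at 3 UMIs allows a level of up to 0.105. Inhibitory nuclei in no type had 4.12 (3.64 to 4.63), from 274 UMIs in 41 of 661 nuclei, with UMIs in all 10 libraries. Of the named classes, OPC-gated nuclei (oligodendrocyte precursors) at 3.51 and fibroblast-gated nuclei at 1.01 stood next to the VIP class. The former rested on 37 UMIs in 2 nuclei and the latter on 30 UMIs in 3 nuclei. Their places above the next class did not hold in both library sets.

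**Figure D1:**
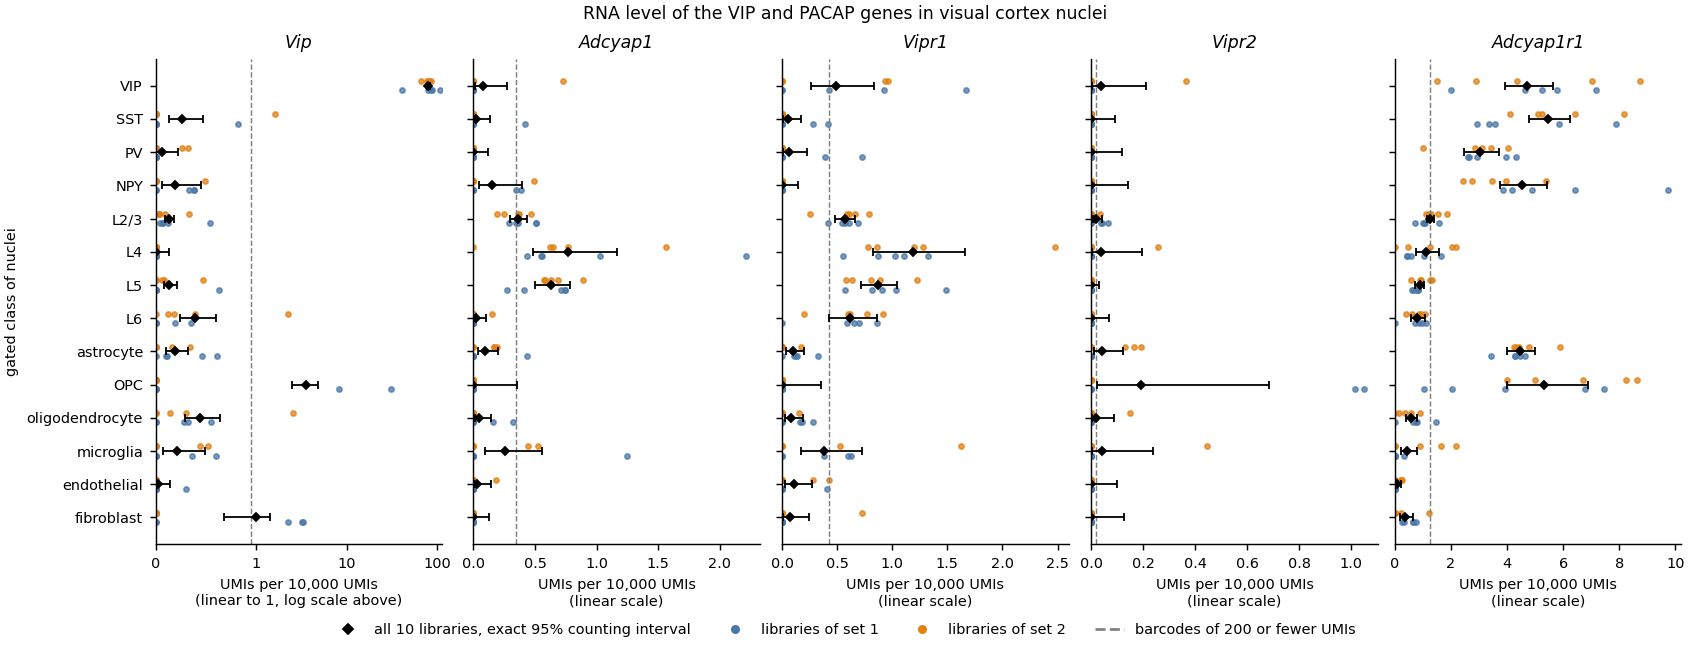
Level of each gene in UMIs per 10000 non-viral UMIs (x axis, linear except above 1 for Vip) in 14 gated classes (y axis), with black diamonds and bars for all 10 libraries with exact 95% counting intervals, dots for single libraries coloured by set, and a dashed line for barcodes of 200 or fewer UMIs. Vip stands at 79.9 in VIP-gated nuclei, Adcyap1 and Vipr1 are highest in L4-gated and L5-gated nuclei, and Adcyap1r1 lies between 3.03 and 5.47 in the 4 interneuron types, astrocytes and OPCs.

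A small number of nuclei carried most Vip RNA. Of all 4356 Vip UMIs, 3792 (87.1%) were in the 319 nuclei that had 5 or more of them. Of these nuclei, 161 were gated as inhibitory and 137 as VIP, whereas 134 fell in no class and 17 were gated as excitatory. The 319 nuclei together had a Gad1 level of 17.9 and a Gad2 level of 8.74 (the enzymes that make GABA), against 0.968 for Slc17a7, the vesicular glutamate transporter of cortical excitatory neurons. Because Vip UMIs come in such clusters, the counting intervals on Vip are narrower than the true uncertainty.

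Within VIP-gated nuclei, the Vip level differed with the other markers a nucleus carried. The 40 nuclei with a Calb2 UMI (calretinin) had a Vip level of 121, against 72.7 in the 197 without. Nuclei with Crh (corticotropin-releasing hormone) had 133 against 49.3, and nuclei with Tac2 (neurokinin B) had 128 against 58.4. These groups had like depths, with median UMI counts between 858 and 890. Cck, the cholecystokinin gene, went the other way, with a Vip level of 51.2 in the 98 nuclei with a Cck UMI and 113 in the 139 without. This split rested in part on the gate. Cck is on the VIP list and was common elsewhere, at 10.7 in excitatory nuclei and 6.89 in the small barcodes, against 16.7 in VIP-gated nuclei. Of the 98 nuclei, 43 passed the gate only through Cck, and these had a Vip level of 7.52 (5.58 to 9.91). The 55 that passed it without Cck had 95.4 (88.1 to 103), which was still below the 113 (107 to 119) of the 139 without a Cck UMI. With Cck left off the list, 194 nuclei were gated and their Vip level was 107. Such nuclei also count in the groups without Calb2, Crh or Tac2, and their part in those values was not tested. The highest level, 216, was that of the 19 nuclei with Crispld2. Htr3a (87.4 against 77.5), the serotonin receptor gene of this wider interneuron family, and Adarb2 (83.0 against 79.3) went with smaller differences. The markers are those of the gate, so a nucleus without 1 marker had to carry others.

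**Figure D2:**
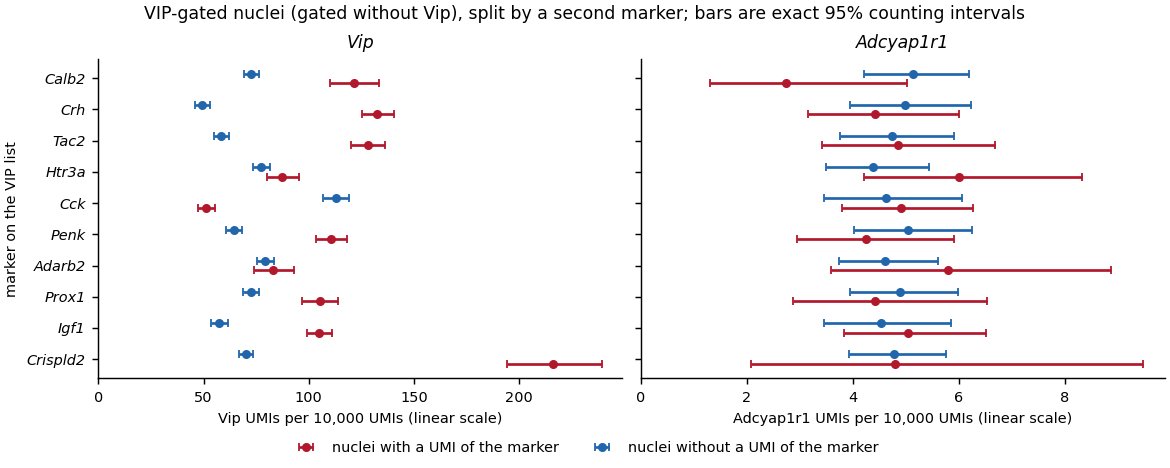
Levels of Vip (left) and Adcyap1r1 (right) in UMIs per 10000 non-viral UMIs (x axes, linear) in VIP-gated nuclei with (red) and without (blue) a UMI of each marker on the VIP list (y axis), with exact 95% counting intervals. The Vip level is 133 with Crh and 49.3 without, and 51.2 with Cck and 113 without, where 43 of the 98 nuclei with Cck passed the gate only through Cck, while the Adcyap1r1 intervals overlap for every marker.

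Adcyap1, the PACAP gene, was a gene of excitatory nuclei at a low level. Excitatory nuclei had 0.494 UMIs per 10000 (0.458 to 0.531), from 713 UMIs, and inhibitory nuclei had 0.0472 (0.0216 to 0.0895), from 9. A UMI was seen in 4.60% of excitatory nuclei (median 1079 UMIs) and in 0.408% of inhibitory nuclei (median 1008 UMIs). The level in excitatory nuclei was 0.496 without shared barcodes. The small barcodes had 0.346 (0.266 to 0.443), which is above the inhibitory level and below every excitatory library. The excitatory interval lay above that of the small barcodes, but the lowest excitatory library, at 0.364, lay inside it.

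The layer-gated excitatory nuclei did not carry Adcyap1 alike. Most of its excitatory UMIs, 500 of 713, were in the 8682 nuclei in no layer, at 0.534. It was at 0.769 in L4-gated nuclei (0.482 to 1.16; 22 UMIs) and at 0.630 in L5-gated nuclei (0.503 to 0.780; 84 UMIs), whose intervals meet. L2/3-gated nuclei had 0.361 (0.296 to 0.437; 106 UMIs), apart from L5 in counting error and in both library sets. The L2/3 interval covers the 0.346 of the small barcodes. L6-gated nuclei had a single Adcyap1 UMI in 388 nuclei, a level of 0.0187 (0.000472 to 0.104), although their median depth of 1289.5 UMIs was close to that of L2/3 (1340). Among interneurons, Adcyap1 was at 0.154 in NPY-gated nuclei, at 0.0750 in VIP-gated nuclei and at 0.0242 in SST-gated nuclei, on 4, 2 and 1 UMIs. It was at 0 in PV-gated nuclei, which at 3 UMIs allows 0.0947.

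The library sets differed in Adcyap1. In excitatory nuclei the 5 libraries of set 1 had 0.472, 0.623, 0.618, 0.494 and 0.776, and those of set 2 had 0.430, 0.412, 0.377, 0.442 and 0.364. Every library of set 1 was above every library of set 2, with 0.592 and 0.406 for the sets as wholes. The libraries of set 2 all lay inside the interval of the small barcodes (0.266 to 0.443), and those of set 1 lay above it. Vipr1 in the same nuclei had 0.770 and 0.736 in the sets, and Adcyap1r1 had 1.18 and 1.22. The difference in Adcyap1 was not alike over the layers, and no test was made between them. Excitatory nuclei in no layer had 0.673 and 0.407 in the sets, and L4-gated nuclei 0.987 and 0.649 on 10 and 12 UMIs. L2/3-gated nuclei went the same way by less, with 0.396 and 0.329. L5-gated nuclei went the other way, with 0.592 and 0.660. Whether the sets are animals, days or both cannot be told apart, and the part of any of these was not tested.

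Vipr1, the gene of the receptor VPAC1, was likewise highest in excitatory nuclei. Their level was 0.752 (0.708 to 0.798), from 1086 UMIs, and the libraries kept close together, with a lowest, median and highest of 0.675, 0.758 and 0.821. Inhibitory nuclei as a whole had 0.110 (0.0681 to 0.168). A UMI was seen in 7.41% of excitatory nuclei and in 0.990% of inhibitory nuclei, at the depths given for Adcyap1. Excitatory nuclei in no layer had 0.788 and held 737 of the 1086 UMIs. By layer the levels were 1.19 in L4 (34 UMIs), 0.870 in L5 (116 UMIs), 0.616 in L6 (33 UMIs) and 0.566 in L2/3 (166 UMIs). Each of these neighbours overlapped in its counting interval, but L2/3 (0.483 to 0.659) was apart from L5 (0.719 to 1.04). The L6 interval (0.424 to 0.865) covers the 0.429 of the small barcodes, whereas the Adcyap1 interval in L6 lay below the small barcodes.

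Among interneurons, Vipr1 had its highest level in the VIP class, on few UMIs. VIP-gated nuclei had 0.487 (0.260 to 0.834), from 13 UMIs in 9 nuclei of 5 libraries. SST-gated nuclei had 0.0484 (0.00587 to 0.175) and PV-gated nuclei had 0.0631 (0.00765 to 0.228), on 2 UMIs each, and NPY-gated nuclei had 0, which at 3 UMIs allows 0.115. The VIP interval lay above the SST and PV intervals. It also covers the 0.429 of the small barcodes, and the library sets had 0.723 and 0.281. The value rested on 7 UMIs, a level of 0.362, without shared barcodes. With Cck left off the VIP list it rested on 7 UMIs too, at 0.340 (0.137 to 0.700), and its interval met that of PV (0.0286 to 0.269). The 319 nuclei with 5 or more Vip UMIs, chosen without any gate, had 0.553 (0.316 to 0.898) on 16 Vipr1 UMIs. Microglia-gated nuclei had 0.381 on 9 UMIs, and astrocyte-gated nuclei had 0.0969 on 7.

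Vipr2, the gene of VPAC2, was close to the limit of detection. All nuclei together held 36 Vipr2 UMIs, each in a nucleus of its own, which is 0.0126 per 10000 against 0.0165 in the small barcodes. Excitatory nuclei had 15 of them (0.0104) and inhibitory nuclei had 4 (0.0210). No order among classes could be read at this depth. SST-gated, PV-gated, NPY-gated, L5-gated and L6-gated nuclei had none, which at 3 UMIs allows levels of up to 0.0727, 0.0947, 0.115, 0.0225 and 0.0560.

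Adcyap1r1, the gene of PAC1, was highest in interneurons, OPCs and astrocytes. SST-gated nuclei had 5.47 UMIs per 10000 (4.78 to 6.23) and OPC-gated nuclei had 5.31 (4.01 to 6.90). VIP-gated nuclei had 4.72 (3.94 to 5.63), NPY-gated nuclei had 4.54 (3.76 to 5.44) and astrocyte-gated nuclei had 4.47 (4.00 to 4.99). Each of these neighbours in the order overlapped in its interval. PV-gated nuclei followed at 3.03 (2.45 to 3.70), apart from astrocytes, and then the excitatory layers between 0.784 and 1.26.

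The spread over libraries was wide within the interneuron types. In SST-gated nuclei the lowest, median and highest library were 2.94, 5.17 and 8.16, and in VIP-gated nuclei they were 1.49, 4.95 and 8.76. The PV libraries ran from 1.02 to 4.31 with a median of 3.01, so they overlapped the SST libraries. Inhibitory nuclei as a whole had 3.38 to 5.51, and excitatory nuclei 1.05 to 1.41, with no overlap. Excitatory nuclei had 1.20 (1.15 to 1.26) from 1739 UMIs, close to the 1.24 of the small barcodes. Oligodendrocyte-gated nuclei at 0.557 and endothelial-gated nuclei at 0.0786 were below both.

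By share of nuclei, an Adcyap1r1 UMI was seen in 42.4% of SST-gated nuclei (median 1096 UMIs) and 34.7% of PV-gated nuclei (1348 UMIs), and in 1.12% of endothelial-gated nuclei (992 UMIs). Astrocyte-gated nuclei gave 18.7% at a median of only 369 UMIs. Without shared barcodes the levels were 5.20 in SST, 5.28 in OPC, 4.86 in VIP, 4.72 in NPY, 4.57 in astrocyte, 3.27 in PV and 1.20 in excitatory nuclei. Within VIP-gated nuclei, Adcyap1r1 was at 2.74 (1.31 to 5.04) with Calb2 and at 5.14 (4.22 to 6.20) without, and no marker of the VIP list parted the intervals. The 319 nuclei rich in Vip had 3.46 (2.81 to 4.20).

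The genes whose levels ran most like those of each member over 16 classes were picked by Pearson r of log2(UMIs per 10000 + 0.1). For Vip they were Cxcl14 (0.782), Fxyd6 (0.719) and Lrpap1 (0.703), and for Adcyap1 they were Pdzrn3 (0.820), Epha4 (0.809) and Rgs4 (0.795). For Vipr1 they were R3hdm2 (0.871), Arpp19 (0.858) and Rin1 (0.856), and for Adcyap1r1 they were Tmem35a (0.937), Astn1 (0.914) and Alg2 (0.896). Those of Vipr2 (Ppt2 at 0.864, Arsb at 0.837 and Tmco3 at 0.825) rested on 14 UMIs. These are the highest of 6433 genes ranked for Vip and 6436 for the others, and all classes come from the same libraries, so the values are descriptions only. With 1 in place of 0.1 added, some of the 3 places changed. Cbln2 stood in place of Lrpap1 for Vip, Rtn4r in place of Rin1 for Vipr1 and Lsamp in place of Astn1 for Adcyap1r1. For Adcyap1, Glt8d2 came first, at 0.861, and Pdzrn3 was no longer among the 3. Those of Vipr2 kept their places.

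Other genes of the pathway were read from lists chosen by function. Of the peptide processing genes, Scg2 (secretogranin II, a dense-core vesicle protein) was at 15.6 UMIs per 10000 in VIP-gated nuclei, its highest class, and at 3.72 in excitatory nuclei. Pam, the enzyme that amidates the end of such peptides, was at 3.26 in VIP-gated and 3.17 in SST-gated nuclei. Pcsk2, a convertase that cuts peptide precursors, went the other way, with 10.6 in excitatory nuclei, 4.80 in VIP-gated and 0.726 in PV-gated nuclei. Mme, the peptide-degrading enzyme neprilysin, was highest in L2/3 at 10.2, and Cpe, which trims peptides, in astrocytes at 58.8.

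The 24 cAMP genes had from 388 UMIs (Rapgef3) to 27444 UMIs (Gnas) each in all nuclei. Gnas, the gene of Gs, was at 17.0 in VIP-gated nuclei and 8.79 in excitatory nuclei, with its highest level, 23.2, in fibroblast-gated nuclei. The regulatory subunits of protein kinase A Prkar1a (8.85), Prkar1b (7.57) and Prkar2b (1.80) had their highest class in VIP-gated nuclei. SST-gated nuclei came close behind for Prkar1a (8.02) and Prkar1b (6.85), and L6-gated nuclei were next for Prkar2b (0.970). The other regulatory subunit, Prkar2a, was highest in OPC-gated nuclei at 1.14 and at 0.562 in VIP-gated nuclei. Rapgef3, which encodes Epac1, was highest in astrocytes at 1.12. Of the related peptides and receptors, Sct, Ghrh, Gcg, Gip, Sctr, Ghrhr, Gcgr, Glp1r and Gipr had 6 to 27 UMIs each in all nuclei. Glp2r had 329 and was highest in L4-gated nuclei, at 0.559. Ramp2, a receptor activity modifying protein, was highest in endothelial-gated nuclei at 7.36.

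Chromatin at these genes was then compared between the sorted interneurons. ATAC-Seq measures how open chromatin is by the reads that a transposase leaves, and each sample had 1801883 to 2256073 reads in the reference regions. Reads were tested in 40338 regions that passed a filter on low counts, with edgeR's quasi-likelihood test and Benjamini-Hochberg adjustment, each type against the mean of the other two. The comparisons share samples, so their values stand side by side. Fewer cells of a type in a sample and less open chromatin per cell cannot be told apart here. The start-site regions of Sst and Vip set their groups apart, and that of Pvalb did so only narrowly, with no test made. That of Sst had 23.6 and 19.9 CPM (reads scaled to a library of a fixed size) in SST against 1.39 to 2.72 elsewhere, that of Pvalb 27.1 and 22.5 in PV against 13.6 to 19.2, and those of Vip 18.4 and 24.0 in VIP against 0.695 to 5.01. The microglia markers, 9 of 10 with a start-site region, had 55.8 to 71.6 CPM in SST, 92.4 to 99.4 in PV and 34.7 to 35.4 in VIP, and the astrocyte markers, 5 of 6 with a region, had 141 to 203 in all samples. The OPC markers, 4 of 5 with a region, had 43.7 and 37.2 CPM in SST, 51.4 and 41.9 in PV, and 23.8 and 19.2 in VIP. The oligodendrocyte markers, 7 of 7 with a region, had 17.9 and 36.6 CPM in SST, 22.9 and 22.5 in PV, and 34.0 and 45.6 in VIP. The mural markers, 6 of 7 with a region, had 53.7 and 39.1, 61.2 and 65.2, and 39.5 and 25.8 in the same order. The endothelial markers, 4 of 7, had 17.2 and 16.8, 18.1 and 24.8, and 12.3 and 14.4. The fibroblast markers, 3 of 5, had 7.16 and 8.06, 13.9 and 7.76, and 2.72 and 1.80. The excitatory markers, 6 of 6 with a region, had 67.4 to 90.8 CPM in all samples. Of this, Slc17a7 had only 1.20 to 2.33 CPM, on 2 to 3 reads a sample. The part of such nuclei in the results was not tested.

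Of the 119 nearby regions, 22 could be tested and 14 were called in at least 1 comparison at an adjusted p under 0.05. Against SST and PV, 7 were higher in VIP and 3 lower, where 24.9% of all regions tested were higher and 24.0% lower. Against PV and VIP, 1 was higher in SST and none lower, with 8.15% and 5.41% over all regions. Against SST and VIP, 4 were higher in PV and 5 lower, with 17.1% and 11.7%. These 9 PV calls became 2 without PV replicate 1, 3 without PV replicate 2, 2 with DESeq2 and 0 without the filter on low counts, while the 11612 PV calls over all regions became 4167, 5616, 4308 and 1218. The median log2 difference of the 22 was -0.05 in VIP, -0.09 in SST and -0.38 in PV, against -0.05, 0.06 and 0.01 over all regions. The 22 passed the filter on their reads and are not all members. Some passed it only through the type in which they were called higher, which set that direction in advance. In VIP these were the tested Vip regions, the last exon of Vipr1 and -7.5 kb of Adcyap1r1. In PV they were the Vipr2 start site and +13.5, +24.5 and +60.1 kb of Adcyap1r1, and in SST its +22.0 kb region. No share of all regions called in at least 1 comparison is given here, so the 14 cannot be read as many or few. Peaks in both replicates of a type lay on 29 of the 119 regions, of which 3 pairs overlap and share their peaks. For this count, too, no share over all reference regions is given.

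The Vip start site was open in the VIP samples. Its region, chr10:5638905-5639646, spans the promoter printed above, the first exon and UTR, and had 5 and 3 reads in SST, 0 and 2 in PV, and 26 and 37 in VIP. The groups did not overlap, and the log2 difference of VIP was 3.74 (SE 0.51, edgeR adjusted p = 1.79e-05). PV was lower than the mean of SST and VIP by a log2 of -3.18 (SE 0.82, adjusted p = 0.00856), a call that was lost without PV replicate 1 (adjusted p = 0.115). The SST difference of -0.56 did not pass the threshold (adjusted p = 0.740). Only the VIP samples had peaks there. A later start site of Vip, at +1.3 kb, had 1 to 3 reads a sample and could not be tested.

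Another region lay beyond the end of Vip, at +11.8 kb from the start site (chr10:5650677-5651350), with no protein-coding gene of the annotation on it. It had 3 and 1 reads in SST, 2 and 0 in PV, and 12 and 13 in VIP, and it too had peaks in the VIP samples alone. VIP was higher by 2.91 (SE 0.62, edgeR adjusted p = 0.00104). The call was lost without VIP replicate 1 (adjusted p = 0.0689) or VIP replicate 2 (adjusted p = 0.0770). The 300 bases at the middle of its VIP peak are printed as the candidate distal element nearest to Vip, from GRCm38.p6, plus strand, and held none of the 8 motifs searched.
Vip VIP peak, chr10:5650900-5651199: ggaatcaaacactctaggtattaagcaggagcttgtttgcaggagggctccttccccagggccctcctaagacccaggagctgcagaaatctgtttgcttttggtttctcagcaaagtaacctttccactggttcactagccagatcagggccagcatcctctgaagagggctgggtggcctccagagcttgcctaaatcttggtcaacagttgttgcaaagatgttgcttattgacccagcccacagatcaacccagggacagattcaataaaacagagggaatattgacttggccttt

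The reference regions of Adcyap1 had almost no reads in the sorted interneurons. None covered its first start site or the promoter printed above, and the nearest began 761 bp past that start site. Reads at that promoter were therefore not counted. Of the 9 regions, those at later start sites at +1.1, +2.8 and +3.3 kb included, none passed the filter. None had a peak in both replicates of a type, and the most reads in any sample was 4. No difference was detectable at this depth. In the nuclei, inhibitory classes had Adcyap1 at 0 to 0.154 UMIs per 10000.

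The Vipr1 start site was more open in VIP. Its region, chr9:121641833-121643462, spans the printed GC-rich promoter and holds the start of the antisense neighbour Lyzl4 as well. It had 7 and 15 reads in SST, 7 and 6 in PV, and 44 and 39 in VIP. The VIP samples stood apart from the rest by a log2 of 2.16 (SE 0.35, edgeR adjusted p = 9.46e-05). PV was lower by -1.53 (SE 0.45, adjusted p = 0.0168), which was lost without PV replicate 1 (adjusted p = 0.113) or PV replicate 2 (adjusted p = 0.116). Peaks in both replicates were called in VIP and in PV.

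The last exon of Vipr1 held the largest VIP difference among the 22 regions, which it entered through its VIP reads alone. This region, chr9:121672211-121672849 at +29.8 kb, had 2 and 0 reads in SST, 1 and 0 in PV, and 17 and 18 in VIP. VIP was higher by 4.27 (SE 0.66, edgeR adjusted p = 6.13e-05), and only VIP had peaks. A region in an exon at +26.8 kb, by contrast, had 16, 13, 18 and 5 reads in SST and PV and 27 and 25 in VIP, with peaks in all types (VIP 0.88, SE 0.39, adjusted p = 0.0694). It passed the threshold without SST replicate 1 (adjusted p = 0.0135), SST replicate 2 (adjusted p = 0.0485) or PV replicate 1 (adjusted p = 0.0103).

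Further out, the regions belonged to neighbouring genes. Within the gene Sec22c, at +47.8 kb, PV was lower by -1.63 (SE 0.56, edgeR adjusted p = 0.0356), with 8 and 2 reads against 9 to 27 elsewhere. This call was lost without SST replicate 2 (-1.24) or PV replicate 2 (-1.03). At the start of Nktr, at +76.4 kb, VIP was higher by 0.54 (adjusted p = 0.0154) and PV lower by -0.68 (adjusted p = 0.0117), on 95 to 221 reads. The VIP call there was lost without PV replicate 1 (adjusted p = 0.0501) or VIP replicate 2 (adjusted p = 0.109), and the PV call without PV replicate 1 (adjusted p = 0.168) or PV replicate 2 (adjusted p = 0.0535). The regions at +62.2 kb, by the start of Sec22c, and at +67.8 kb, at that of Ss18l2, had peaks in all types and passed no threshold, on 28 to 72 reads. Without SST replicate 2, both were lower in VIP (-0.89, adjusted p = 0.000579, and -0.93, adjusted p = 0.000712) and the former higher in SST (0.84, adjusted p = 0.0143), and without SST replicate 1 the latter was higher in PV (1.06, adjusted p = 0.000277). Another 2 regions with peaks had too few reads to be tested. They lay at +36.8 kb, with peaks in VIP and 2 to 9 reads, and at +54.1 kb, with peaks in SST and 1 to 10 reads. The region at +76.9 kb, with 2 to 11 reads, overlaps that at Nktr and shares its peaks. Side by side with the RNA, the VIP type had the most reads of the sorted types at the start site that Vipr1 shares with Lyzl4, where reads cannot be assigned to either gene, and the highest Vipr1 level of the interneuron classes, 0.487.

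Vipr2 had few reads. Its start site, chr12:116077482-116078266, had 7 and 4 reads in SST, 18 and 10 in PV, and 9 and 5 in VIP. PV was higher by 1.31 (SE 0.47, edgeR adjusted p = 0.0431), but the lower PV sample was just above the highest VIP sample, and the call was lost without SST replicate 2 (adjusted p = 0.0885), PV replicate 1 (adjusted p = 0.488), PV replicate 2 (adjusted p = 0.0708) or VIP replicate 2 (adjusted p = 0.155). The PV peaks there reached into the overlapping region at -0.5 kb, which had 0 to 3 reads a sample, too few to be tested. The start of the neighbouring gene Zfp386, at -30.0 kb, had 50 to 54 reads in SST and PV and 29 and 25 in VIP (-1.06, SE 0.28, adjusted p = 0.00537). This VIP call was lost without the filter on low counts (-0.82, edgeR adjusted p = 0.129). That call was lost without VIP replicate 2 (adjusted p = 0.192).

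The Adcyap1r1 start site was open in all types. The region chr6:55451820-55452684 had 60 and 149 reads in SST, 77 and 76 in PV, and 119 and 122 in VIP, with peaks in all 6 samples. No comparison was called (VIP 0.32, adjusted p = 0.298, SST 0.05, adjusted p = 0.931, PV -0.37, adjusted p = 0.293, all edgeR). The SST samples were the lowest and the highest of the 6. Without SST replicate 2 the SST difference was -0.61 (adjusted p = 0.0483) and that of VIP 0.69 (adjusted p = 0.000208). Without SST replicate 1 the SST difference was 0.51 (adjusted p = 0.0438) and that of PV -0.64 (adjusted p = 0.000978). The direction for SST was therefore set by a single sample.

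Around this shared start site, other regions of Adcyap1r1 differed by type. At -7.5 kb, chr6:55444094-55444902 had 5 and 0 reads in SST, 1 and 5 in PV, and 29 and 40 in VIP. VIP was higher by 3.45 (SE 0.54, edgeR adjusted p = 6.62e-05), with peaks in VIP alone. At -16.1 kb, chr6:55435494-55436316 had 14 and 16 reads in SST, 4 and 9 in PV, and 24 and 43 in VIP, so that the 3 types did not overlap. VIP was higher there by 1.60 (SE 0.37, adjusted p = 0.00196) and PV lower by -1.59 (SE 0.46, adjusted p = 0.0166), the latter lost without PV replicate 1 (adjusted p = 0.239).

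Introns of Adcyap1r1 held a region that was most open in SST and others that were most open in PV. At +22.0 kb, chr6:55473679-55474296 had 12 and 22 reads in SST, 9 and 7 in PV, and 2 and 4 in VIP. SST was higher by 1.72 (SE 0.45, edgeR adjusted p = 0.0166) and VIP lower by -2.04 (SE 0.57, adjusted p = 0.00675). The SST call was lost without SST replicate 2 (adjusted p = 0.200) and the VIP call without VIP replicate 1 (adjusted p = 0.0884). Both were lost with DESeq2 as well (adjusted p = 0.210 for SST, 0.0648 for VIP) and without the filter on low counts (adjusted p = 0.210 and 0.112). At +24.5 kb, chr6:55476188-55476850 had 8 and 5 reads in SST, 18 and 21 in PV, and 4 and 4 in VIP. PV was higher by 2.08 (SE 0.43, adjusted p = 0.00227), a call that held without each sample in turn and with DESeq2, but not without the filter on low counts (adjusted p = 0.0780). VIP was lower by -1.60 (adjusted p = 0.0203), which was lost without SST replicate 1 (adjusted p = 0.0777), PV replicate 2 (adjusted p = 0.0602), VIP replicate 1 (adjusted p = 0.0980) or VIP replicate 2 (adjusted p = 0.163). The VIP call at +24.5 kb was also lost with DESeq2 (adjusted p = 0.121) and without the filter on low counts (edgeR adjusted p = 0.205). The region at +22.0 kb had peaks in both replicates of SST alone and that at +24.5 kb of PV alone.

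The 3 Adcyap1r1 windows are printed as the sequences at peaks called in both replicates of a single type, each as the 300 bases at the middle of the peak (GRCm38.p6, plus strand). The capitals in the SST window mark a match to TGANTCA, the AP-1 motif, which was in 13.7% of windows of this length at the peaks of SST replicate 2. None of the other motifs searched was found in these windows.
Adcyap1r1 VIP peak, chr6:55444326-55444625: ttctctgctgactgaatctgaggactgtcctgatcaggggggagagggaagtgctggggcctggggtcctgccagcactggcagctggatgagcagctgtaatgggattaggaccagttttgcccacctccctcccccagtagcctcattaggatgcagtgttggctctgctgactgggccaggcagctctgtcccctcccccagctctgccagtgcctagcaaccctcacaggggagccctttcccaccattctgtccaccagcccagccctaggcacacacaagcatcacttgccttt
Adcyap1r1 SST peak, chr6:55473839-55474138: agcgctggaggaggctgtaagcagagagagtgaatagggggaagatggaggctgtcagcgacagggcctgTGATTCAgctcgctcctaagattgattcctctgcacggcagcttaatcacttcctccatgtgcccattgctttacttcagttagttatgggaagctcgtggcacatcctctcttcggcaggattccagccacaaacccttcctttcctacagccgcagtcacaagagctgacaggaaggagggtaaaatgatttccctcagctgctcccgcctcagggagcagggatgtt
Adcyap1r1 PV peak, chr6:55476400-55476699: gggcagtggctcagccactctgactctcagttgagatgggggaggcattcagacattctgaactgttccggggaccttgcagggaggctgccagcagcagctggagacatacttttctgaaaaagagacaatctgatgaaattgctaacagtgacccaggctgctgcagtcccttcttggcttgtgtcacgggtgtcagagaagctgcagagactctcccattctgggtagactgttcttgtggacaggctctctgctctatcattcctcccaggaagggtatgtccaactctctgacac

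PV was also higher at an intronic region at +13.5 kb (6, 9, 17, 15, 3 and 8 reads in the order SST, PV, VIP; 1.47, SE 0.43, edgeR adjusted p = 0.0175). That call was lost without PV replicate 1 (adjusted p = 0.155), PV replicate 2 (adjusted p = 0.0987) or VIP replicate 1 (adjusted p = 0.0749). A region past the gene at +60.1 kb had 4 and 5 reads in SST, 15 and 11 in PV and 2 and 4 in VIP, and PV was higher by 1.95 (SE 0.48, adjusted p = 0.00617). It was lost without PV replicate 1 (adjusted p = 0.234) or PV replicate 2 (adjusted p = 0.0760). The other tested regions of Adcyap1r1, at -17.5, +8.1, +32.4 and +39.5 kb, passed no threshold, but the last was lower in VIP without SST replicate 2 (-1.09, edgeR adjusted p = 0.0422). Peaks also lay on regions with too few reads to be tested. Those at -41.3 kb (PV, 2 to 8 reads), -31.0 kb (VIP, 0 to 10 reads) and +87.4 kb (SST, 2 to 7 reads) had them in both replicates of a single type, and that at +68.1 kb in all types, on 0 to 7 reads. The region at +22.4 kb, with 1 to 9 reads, overlaps that at +22.0 kb and shares its SST peaks.

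**Figure D3:**
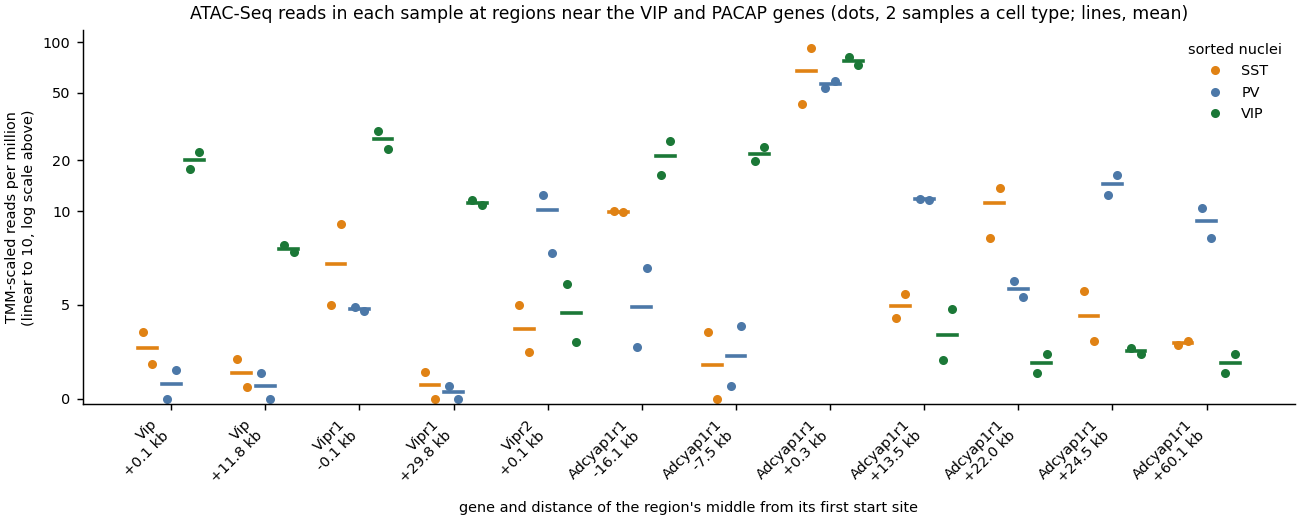
TMM-scaled CPM (y axis, linear to 10 and log above) at 12 regions named by gene and distance from its start site (x axis), with a dot for each of the 2 samples of SST (orange), PV (blue) and VIP (green) and a line for their mean. The VIP dots stand alone at the Vip regions, at both Vipr1 regions and at -7.5 kb of Adcyap1r1, whereas the start site of Adcyap1r1 at +0.3 kb is open in all 6 samples.

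**Figure D4:**
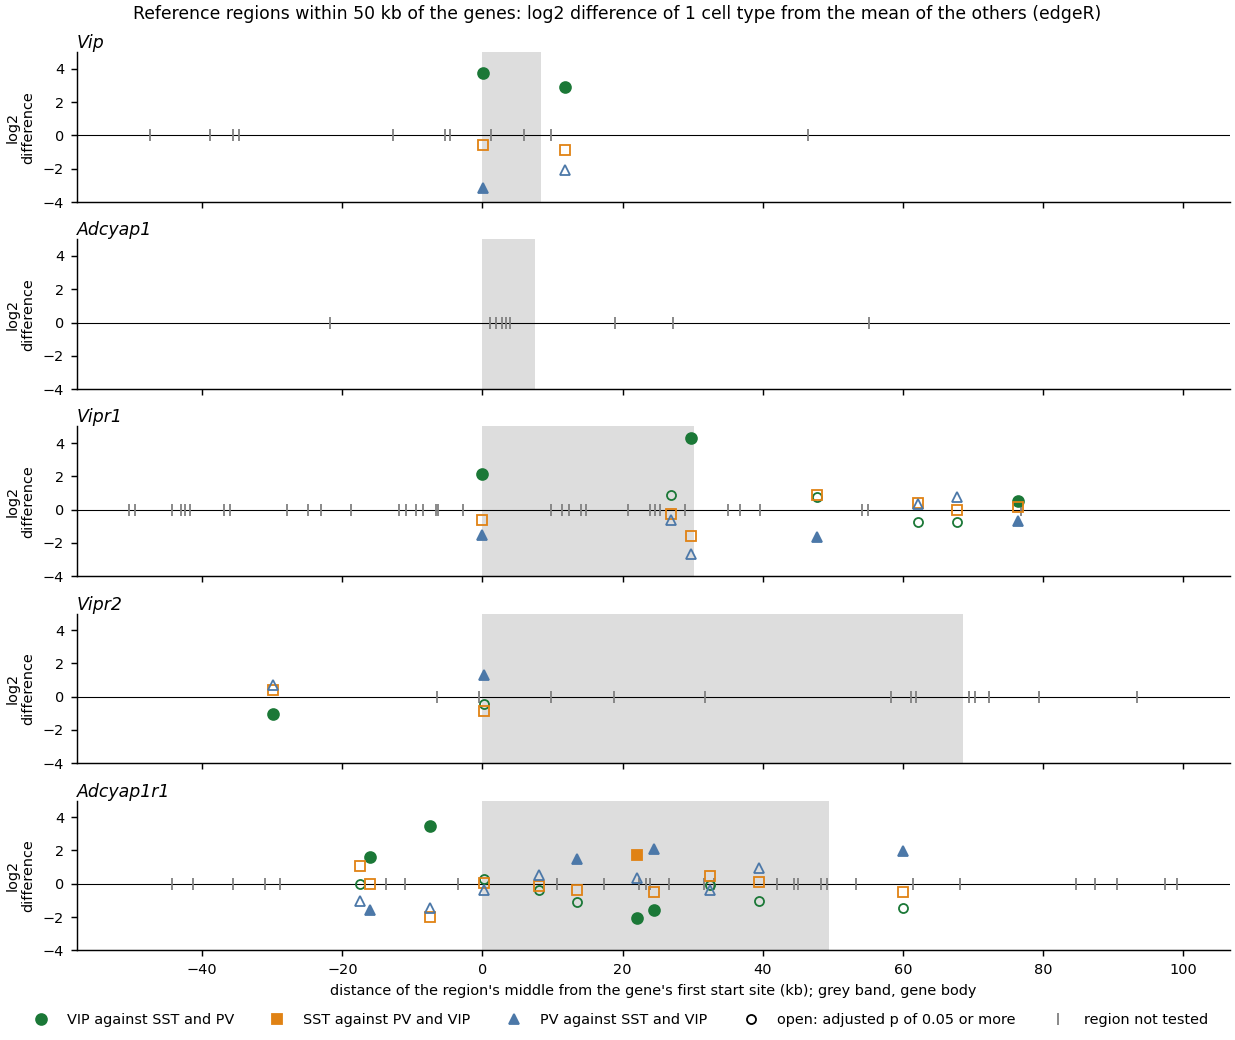
Log2 difference of each type from the mean of the others (y axes) at the reference regions of the 5 genes by distance from the first start site in kb (x axis), with filled symbols for an adjusted p under 0.05, open symbols otherwise, grey ticks for regions too low to test and grey bands for gene bodies. Vip and Adcyap1r1 have VIP regions at 3.74 and 3.45, Vipr1 at 4.27, and Adcyap1 has none that could be tested.

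Start sites of the rest of the pathway were compared by gene. Of 12621 genes with a tested start-site region, 22.7% had a region higher and 19.7% a region lower in VIP, 3.39% and 0.982% in SST, and 12.3% and 15.9% in PV. Of 50 listed genes, 38 could be tested, with 13 higher and 10 lower in VIP, 1 and 2 in SST, and 8 and 6 in PV. Of the 9 processing genes, Chgb, Pam and Pcsk2 were higher in VIP and Mme and Pcsk1 lower. At 1 of the 2 start sites of Pam that could be tested, 17 and 30 reads were in SST, 29 and 19 in PV, and 76 and 70 in VIP, a log2 difference of 1.50 (SE 0.28, edgeR adjusted p = 0.000317). The other had more reads, 86 and 144 in SST, 145 and 120 in PV, and 169 and 191 in VIP, and was not called (0.42, adjusted p = 0.0702). Pcsk1, a convertase, had 87 and 48 reads in SST, 117 and 88 in PV, and 34 and 35 in VIP (-1.40, SE 0.30, adjusted p = 0.000977), and was higher in PV by 1.24 (adjusted p = 0.00281).

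Of the 24 cAMP genes, 7 had a start-site region higher in VIP (Atf1, Creb1, Crtc1, Pde4d, Prkaca, Rapgef3 and Rapgef4) and 7 lower (Crem, Gnal, Gnas, Pde4b, Pde4d, Prkacb and Prkar1a), with Pde4d, a cAMP phosphodiesterase, in both through different start sites. Rapgef3 had the largest difference, with 1 and 4 reads in SST, 3 and 5 in PV, and 41 and 43 in VIP at its most changed start site (3.55, SE 0.41, edgeR adjusted p = 3.69e-06). The RNA of Rapgef3 rested on few UMIs in interneurons. It was at 0.187 in VIP-gated nuclei, 0.0242 in SST-gated nuclei and 0 in PV-gated nuclei, which at 3 UMIs allows 0.0947. NPY-gated nuclei, a type that was not sorted, had more, at 0.462, and astrocytes had 1.12. Of the genes lower in VIP by chromatin, Gnas had more RNA in VIP-gated nuclei (17.0) than in SST-gated (11.2) or PV-gated nuclei (11.4). Pde4b (1.39 against 0.194 and 0.189), Crem (0.450 against 0.266 and 0.126) and Prkar1a (8.85 against 8.02 and 7.55) went the same way. Pde4d differed little (0.150 against 0.121 and 0.126), and Gnal, at 1.46, lay between SST-gated and PV-gated nuclei (2.05). Prkacb had less, at 3.22 against 7.12 and 8.68, but was called at start sites with 1 to 15 reads. Its start site with most reads, 174 to 269, was not called (-0.24, edgeR adjusted p = 0.319). Nor were those of Crem and Pde4b. Of the 4 targets of CREB, Fos, Nr4a1 and Per1 had a start-site region higher in VIP and Bdnf lower. For Fos this was 1 of 2 regions, with 5 to 8 reads in SST and PV and 21 and 33 in VIP, and the other, with 28 to 83 reads, was not called (-0.21, adjusted p = 0.629). A start site of Bdnf, the neurotrophin gene, had 38 and 30 reads in SST, 66 and 55 in PV, and 10 and 2 in VIP (-3.01, SE 0.46, adjusted p = 5.61e-05), and was higher in PV by 2.22 (adjusted p = 0.000461). Of the sister receptors only 1 of 6 could be tested and none was called, and no sister peptide and no receptor activity modifying protein could be.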

How the data were processed

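snRNA-Seq counts of UMIs per nucleus were deposited without normalization. Per the study's methods, the authors mapped the reads to GRCm38 with a contig added for each viral barcode. Viral columns were left out here. For ATAC-Seq, the submitters' processing notes name Trimmomatic 0.33, Subread 1.4.6-p3, SAMtools, MACS2, HOMER, bedtools and featureCounts. The authors deposited raw counts of reads on 323369 reference regions, some of which overlap. The deposited peak lists, called in each replicate, give −log10 q-values. A deposited table of 0 or 1 per region and sample, of which only the coordinates were used, also gives the authors' conservation score. A table that holds the authors' own enrichment of screened regions was not used.

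Nuclei with more than 200 UMIs were gated on marker lists, and levels were summed per class and library, with exact 95% intervals. Doublets were not removed. Region reads from all 6 ATAC-Seq samples were normalized by TMM, filtered with filterByExpr and fitted by quasi-likelihood in edgeR 4.0.16 under R 4.3.3. The samples had 1801883 to 2256073 reads in regions. Each type was set against the mean of the other two, and p-values were adjusted by Benjamini-Hochberg over the 40338 regions tested. SE stands for the size of the log2 difference divided by the square root of the quasi-likelihood F, and was not estimated by the fit itself. The biological coefficient of variation was 0.181. The code was tested on simulated data. The ATAC-Seq replicates were separate animals. Replicate numbers did not pair samples across types.

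The text names the 5 genes, their regions within 50000 bp that were called, that lay at a start site or that had peaks, the 3 genes most like each, and, of pathway lists, the genes called at a start site and those with the highest level in nuclei. Members and lists were chosen with earlier results of these data known. Gene positions came from GENCODE M21 and sequences from RefSeq (GRCm38.p6), with Python 3.11.15. DESeq2 1.42.0, other filters and scalings, left-out samples and other gates were tried as alternatives, and leaving out shared barcodes and leaving Cck off the VIP list were added after the data had been seen.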

Additional observations from a re-analysis of the deposited data

Results flagged for a closer look

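In classes of at least 200 nuclei with at least 20 UMIs of the gene, the gap between the most extreme library and its neighbour was set against the whole range, over 31 pairs of class and gene, with libraries at 0 included. The limit used flags about 1 in 20 groups of normally distributed values. Its rate on low counts with libraries at 0 was not measured, so the number of flags cannot be set against it. In 6 cases the gap was wide, each on few UMIs. Vip in L6-gated nuclei was 2.23 UMIs per 10000 in library 1 of set 2 (15 UMIs), with 0.393 in the next. In OPC-gated nuclei it was 30.5 in library 4 of set 1 (29 UMIs, all in a single nucleus), with 8.12 in the next. In oligodendrocyte-gated nuclei it was 2.56 in library 3 of set 2 (18 UMIs), with 0.552 in the next. Vipr1 in L4-gated nuclei was 2.48 in library 4 of set 2 (8 UMIs), with 1.33 in the next. Vipr1 in inhibitory nuclei was 0.520 in library 1 of set 1 (8 UMIs), with 0.149 in the next. Adcyap1r1 in PV-gated nuclei was lowest, at 1.02, in library 2 of set 2 (5 UMIs), with 2.59 in the next.

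Nuclei outside every class held Vip RNA as well. Of the 319 nuclei with 5 or more Vip UMIs, 134 were in no class. No comparison between classes used them. All nuclei in no class together had a Vip level of 1.78, against 0.945 in the small barcodes.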

How the results depend on the processing

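Of the regions called near the 5 genes, the VIP count of 10 ranged from 6 to 17 when each sample was left out (6 without VIP replicate 2, 17 without SST replicate 2). The SST count of 1 ranged from 1 to 4. The PV count of 9 ranged from 2 to 13, with 2 without PV replicate 1 and 3 without PV replicate 2. DESeq2 called 0 in SST and 2 in PV, and no filter on low counts called 0 in SST and 0 in PV. Over all regions, the 19718 called in VIP became 12285 with DESeq2 and 12367 to 26983 with a sample left out (12367 without VIP replicate 2). The 5470 in SST became 568 without a filter, 1453 with DESeq2 and 4442 to 7465 with a sample left out. The 11612 in PV became 1218 without a filter, 4308 with DESeq2 and 4167 to 18315 with a sample left out (4167 without PV replicate 1, 5616 without PV replicate 2, 18315 without SST replicate 1). Without a filter, 310118 regions were tested in place of 40338, and the share of the VIP calls that were higher went from 50.9% to 78.2%. For the other changes in these counts the cause was not tested. Library totals without TMM gave 9084 higher and 10785 lower in VIP.

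With the replicate number as a block, 11, 1 and 10 nearby regions were called in VIP, SST and PV, of 19141, 4929 and 11037 in all. The block lost none of the nearby calls and added the +26.8 kb region of Vipr1 in VIP (adjusted p = 0.0454) and its +67.8 kb region in PV (adjusted p = 0.0468). The numbers mark no shared animal, and the deviations of same-numbered samples had correlations of 0.0214, 0.0290 and -0.0340.

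Of single regions, the SST difference at the Adcyap1r1 start site turned from 0.05 to -0.61 without SST replicate 2, and was 0.51 without SST replicate 1. The 5 VIP calls at the Vip and Vipr1 start sites, the last exon of Vipr1 and -16.1 and -7.5 kb of Adcyap1r1 held under every alternative run. The PV call at the Vip start site was lost with DESeq2 (adjusted p = 0.0516) and without a filter (adjusted p = 0.101). The 29 regions with peaks became 47 with a peak in either replicate and 14 with a −log10 q of at least 10. With every other list at 0, Vip in VIP-gated nuclei was 102 and Adcyap1r1 in astrocytes 5.22. With Cck left off the VIP list, chosen after the data had been seen, Vip in VIP-gated nuclei was 107. It was 97.3 with nuclei thinned to 300 UMIs, and Adcyap1r1 in astrocytes was 3.78 in nuclei of more than 500 UMIs.

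With 2 samples a type and 0 to 43 reads at most of these regions, small differences could not be seen. The levels of Vipr2 rested on at most 15 UMIs a class, those of Vipr1 in the interneuron types on at most 13 and those of Adcyap1 in classes outside excitatory nuclei on at most 9.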

Other observations

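Thinned to 300 UMIs each, 11497 excitatory nuclei included 157 with an Adcyap1 UMI, 252 with a Vipr1 UMI and 393 with an Adcyap1r1 UMI. Adcyap1 and Vipr1 were seen together in 8 of them, where 3.44 would be met if each were seen without regard to the other. Adcyap1 and Adcyap1r1 were together in 5, against 5.37. Vipr1 and Adcyap1r1 were together in 8, against 8.61. Of 1620 inhibitory nuclei, 22 had both Vip and Adcyap1r1, against 20.1. These are small numbers, and layers with more of either gene were not held apart.

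Microglia-gated nuclei had Adcyap1r1 at 0.0705 in set 1 (1 UMI) and at 0.953 in set 2 (9 UMIs). NPY-gated nuclei had it at 5.70 in set 1 and 3.58 in set 2, while VIP-gated nuclei had 4.74 and 4.71.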
